A study of Mus musculus with 10 samples.

Results

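The 10 genes linked to the alternative activation of macrophages followed here in subcutaneous islet grafts are the chitinase-like genes Chil3, Chil4 and Chil1, the enzyme gene Arg1, the resistin-like gene Retnla, the lectin receptor genes Mrc1, Mgl2 and Clec10a, and the chemokine genes Ccl24 and Ccl17. They were chosen by symbol, with earlier results of these data known. Each of the 10 genes had 1 probe set that carries its symbol alone, and 1 further probe set, shared by Chil3 and Chil4, was kept apart, which gives 11 of the 45037 non-control probe sets on the array. Chil3 and Arg1 were high on days 1 and 3 after transplantation and had come down to the levels of non-transplanted tissue by day 10. Retnla, often listed with them, ran the other way, and Mrc1 lay above non-transplanted tissue in every graft.

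Macrophages that meet the cytokines interleukin-4 or interleukin-13 signal through the receptor chain Il4ra and the transcription factor Stat6, and they switch on a set of genes that differs from the one induced by bacterial products or interferon. In mice this set includes the secreted lectin Chil3 (also called Ym1), Arg1, which splits arginine into ornithine and urea, Retnla (Fizz1), and the surface receptors Mrc1 (the mannose receptor, CD206), Mgl2 and Clec10a, which bind sugars. Ccl24 attracts eosinophils and Ccl17 attracts T cells that carry Ccr4. Several of these genes are not private to macrophages: Chil3 is also made by neutrophils, and Chil1 by many cell types.

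Male Swiss nu/nu mice, 6 weeks old and lacking a thymus and most T cells, were the recipients. The Control group was healthy and the Diabetic group had received streptozotocin, and a subcutaneous biopsy of each (day 0) stands for tissue without a graft. All graft recipients were streptozotocin-diabetic as well and carried Wistar rat islets in a plasma-based scaffold laid over the abdominal muscle. In PSI grafts the scaffold held islets alone, and in PSI-F grafts it also held skin fibroblasts cultured from nu/nu mice. Grafts were taken on days 1, 3, 7 and 10, and RNA was read on 10 Affymetrix mouse arrays, 1 per condition. For each kind of graft 2 mice were killed at each time, and only RNA of the best quality was hybridized. The number of mice behind each array is not stated in the methods. The probes are for mouse transcripts, so RNA of the rat islets is seen only where it binds them.

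Levels are log2 expression values, so a difference of 1 is a 2-fold difference. The median probe set of an array lay between 2.82 and 2.94, and levels near or below it are close to background. With 1 array per condition, a difference between 2 arrays has no replicate check. Tests were made over several arrays with limma, with p-values adjusted over all 45037 probe sets, and days or kinds of graft then stand in for replicates. Such p-values measure the spread between arrays, which may be technical. On the arrays of days 7 and 10, 12 of 24 poly-A spike-in control probe sets were brighter than on any other array, by 0.75 to 2.55 on average (log2). Every comparison of late grafts with early grafts or with the biopsies therefore crosses that change, and its part in the results was not tested. For that reason differences within days 1 and 3 and within days 7 and 10 are given too.

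**Figure D1:**
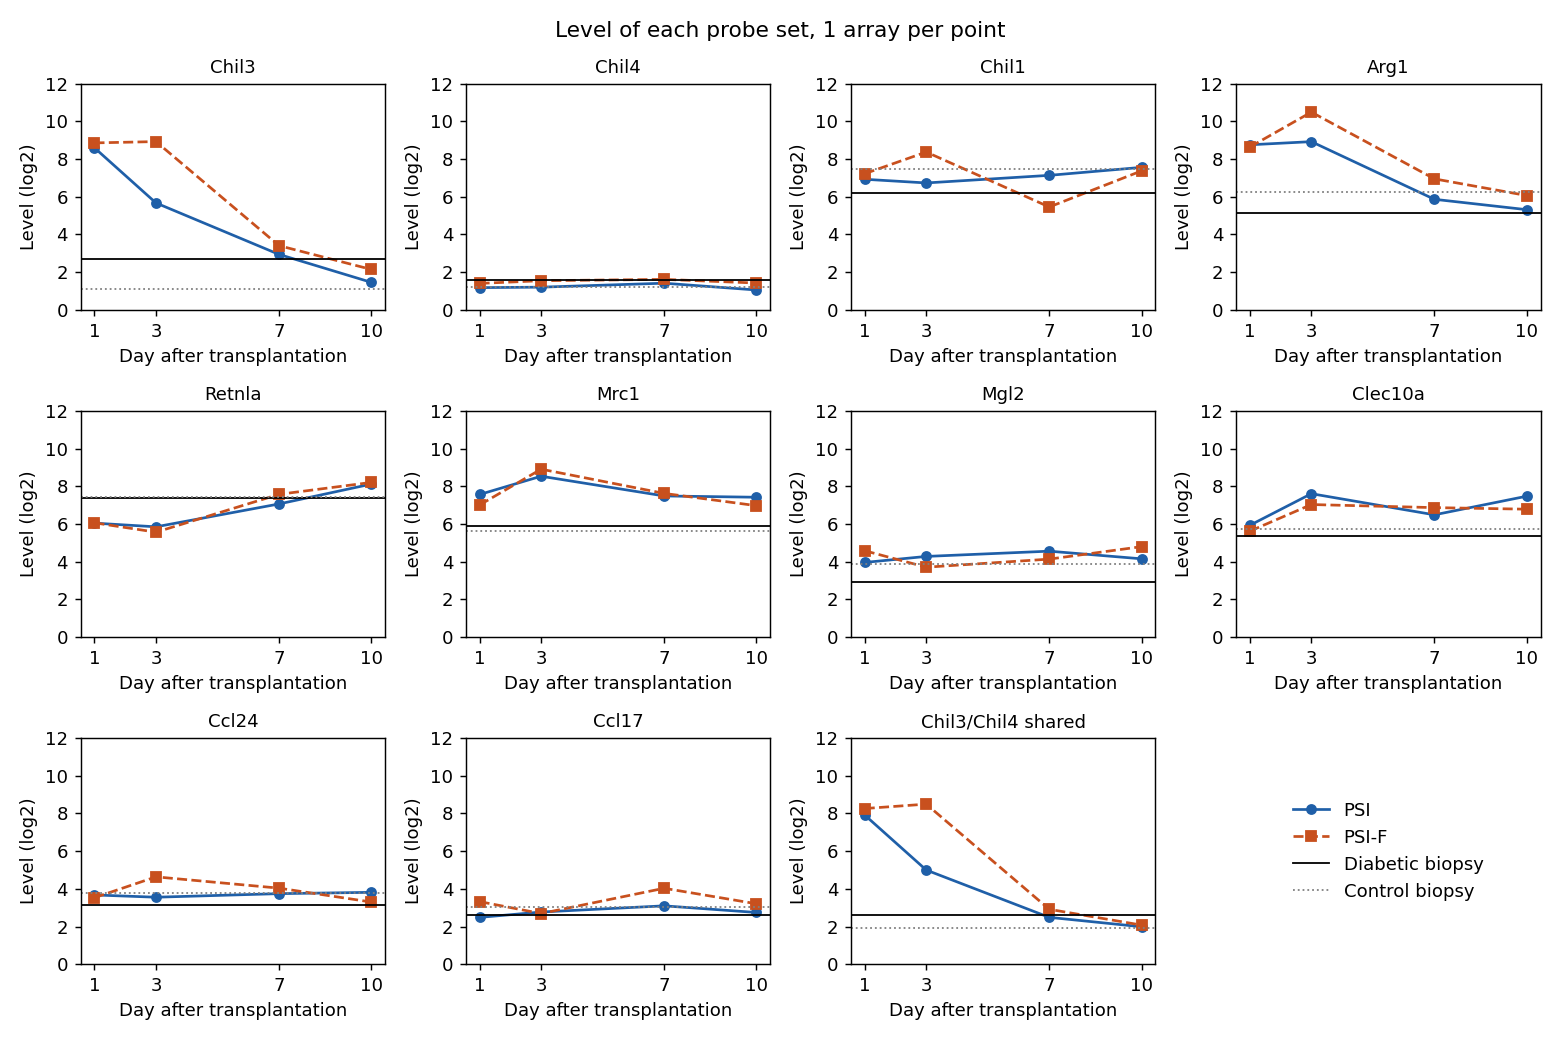
Log2 level of each of the 11 probe sets against the day after transplantation (days 1, 3, 7 and 10), with PSI as circles on a solid line, PSI-F as squares on a dashed line, and the Diabetic and Control biopsies as horizontal solid and dotted lines; each point is 1 array. Chil3, the shared probe set and Arg1 are high on days 1 and 3 and low later, Retnla is lowest on day 3 (5.85 and 5.56), and Mrc1 lies above both biopsies in all 8 grafts.

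Chil3 had the widest range of the 11 probe sets. Its level was 1.12 in Control and 2.69 in Diabetic. In PSI grafts it was 8.60 on day 1, 5.67 on day 3, 2.94 on day 7 and 1.46 on day 10. In PSI-F grafts it was 8.86, 8.93, 3.41 and 2.15 on the same days. All 4 early grafts thus lay above all 4 late grafts and above both biopsies, and by day 10 both grafts were below the Diabetic biopsy. The day 10 levels lay below the medians of their arrays, so folds against them are bounds: with levels under an array's median raised to that median, day 10 was at least 51.6-fold below day 1 in PSI and at least 60.8-fold below in PSI-F. With the levels as they stand, day 10 was 7.13 (log2) lower than day 1 in PSI, and 2.92 of this lay between days 1 and 3. The PSI-F level, by contrast, differed by 0.07 between those days and was 5.52 lower on day 7 than on day 3.

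The probe set shared by Chil3 and Chil4 gave the same picture. It was at 1.90 in Control and 2.63 in Diabetic, at 7.91, 5.0, 2.49 and 1.99 in PSI grafts of days 1, 3, 7 and 10, and at 8.26, 8.49, 2.91 and 2.08 in PSI-F grafts. The probe set that names Chil4 alone stayed between 1.06 and 1.62 and did not exceed the array median on any of the 10 arrays. Probe sets differ in how well they bind, and whether this one detects its transcript was not tested. Chil4 is a close relative of Chil3, and the pair lies side by side on chromosome 3.

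The 250 bases before each start are shown here because this pair shares a probe set and nearly the same upstream sequence, and because Retnla moved in the opposite direction to Chil3. They come from RefSeq on GRCm38.p6. Chil3 (chr3:106147554-106167564) has the upstream window chr3:106167565-106167814 on the minus strand, Chil4 (chr3:106201491-106219479) has chr3:106219480-106219729 on the minus strand, and Retnla (chr16:48842609-48844461) has chr16:48842359-48842608 on the plus strand. Capitals mark matches to the STAT motifs, TTC and GAA with 3 bases between them (TTCNNNGAA) or with 4, the spacing that Stat6 prefers.
Chil3: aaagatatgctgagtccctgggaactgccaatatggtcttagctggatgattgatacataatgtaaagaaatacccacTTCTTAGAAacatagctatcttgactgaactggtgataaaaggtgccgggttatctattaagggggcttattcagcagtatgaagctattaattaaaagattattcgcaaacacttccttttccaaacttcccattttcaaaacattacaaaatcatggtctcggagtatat
Chil4: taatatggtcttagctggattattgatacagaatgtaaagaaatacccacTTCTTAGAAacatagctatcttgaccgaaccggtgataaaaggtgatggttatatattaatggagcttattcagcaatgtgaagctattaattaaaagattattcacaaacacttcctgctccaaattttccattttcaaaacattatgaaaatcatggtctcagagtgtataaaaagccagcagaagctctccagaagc
Retnla: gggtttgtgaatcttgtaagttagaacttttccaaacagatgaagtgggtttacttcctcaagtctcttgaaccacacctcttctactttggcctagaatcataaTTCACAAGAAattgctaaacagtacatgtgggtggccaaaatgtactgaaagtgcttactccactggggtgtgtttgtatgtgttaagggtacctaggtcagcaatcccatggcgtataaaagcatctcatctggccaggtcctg
When the Chil3 and Chil4 windows were aligned, 201 of 221 aligned positions were identical (91.0%). Both hold TTCTTAGAA, at -172 to -164 for Chil3 and -200 to -192 for Chil4, counted from the start. Retnla holds TTCACAAGAA at -145 to -136, with the Stat6 spacing. Motifs were searched on both strands from 250 bases before to 50 after the start in the 7 member genes whose promoters were given, and Arg1, Clec10a and Ccl24 were not in the table. Besides these 3 genes, only Ccl17 held such matches, TTCTCTGGAA at -154 to -145 and TTCTTTGAA at -99 to -91. The C/EBP motif TTGCNNAA was found in Chil4 and Retnla, and the PU.1 motif in none of the 7. Of 32851 mouse promoters of this length, 6.95% held the Stat6 motif, 8.3% TTCNNNGAA, 10.8% TTGCNNAA and 0.426% the PU.1 motif. A match is a description of the sequence and not a binding site.

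Chil1, a chitinase-like protein that binds chitin without cutting it, followed neither of its relatives. It was at 7.49 in Control and 6.19 in Diabetic. PSI grafts held it between 6.73 and 7.56 on the 4 days. PSI-F grafts were at 7.22 on day 1, 8.37 on day 3, 5.46 on day 7 and 7.37 on day 10, so that the highest and the lowest of the 10 values were both PSI-F grafts. No test over several arrays called Chil1.

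Arg1 peaked on day 3. It was at 6.24 in Control and 5.12 in Diabetic. PSI grafts had 8.76 on day 1, 8.92 on day 3, 5.87 on day 7 and 5.32 on day 10, and PSI-F grafts had 8.64, 10.49, 6.95 and 6.07. The early grafts lay above every late graft and both biopsies, and the late grafts were spread around the biopsies. Between days 1 and 3 the level differed by 0.17 in PSI and by 1.85 in PSI-F, and day 10 was below day 7 by 0.55 in PSI and 0.88 in PSI-F.

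Retnla, whose protein is secreted by alternatively activated macrophages and by fat and airway tissue, was low when Chil3 and Arg1 were high. Both biopsies held it at about the same level, 7.44 in Control and 7.37 in Diabetic. In PSI grafts it was 6.04, 5.85, 7.06 and 8.11 on days 1, 3, 7 and 10, and in PSI-F grafts 6.06, 5.56, 7.57 and 8.20. The 4 early grafts were the lowest of the 10 values and the day 10 grafts the highest. Day 10 was above day 7 in both kinds of graft, by 1.05 in PSI and 0.63 in PSI-F, a step that does not cross the change in spike-in controls. On the side of days 1 and 3 the steps were small, -0.20 and -0.50.

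Of the receptors, Mrc1 was at 5.63 in Control and 5.87 in Diabetic, and the lowest graft, PSI-F of day 10, was at 6.97. Day 1 gave 7.56 in PSI and 7.00 in PSI-F, day 3 gave 8.53 and 8.90, day 7 gave 7.48 and 7.62, and day 10 gave 7.42 and 6.97. Mrc1 was therefore above both biopsies from the first day on, with its highest pair on day 3. Clec10a, which binds galactose-type sugars, was at 5.71 in Control and 5.36 in Diabetic and came up later than Chil3: 5.93 and 5.62 on day 1 in PSI and PSI-F, then 7.60 and 7.03 on day 3, 6.48 and 6.87 on day 7, and 7.47 and 6.78 on day 10. The PSI-F graft of day 1 lay between the biopsies and the other 7 grafts lay above both. Its neighbour on chromosome 11, Mgl2, a lectin of the same type, was dim, at 3.89 in Control, 2.92 in Diabetic and 3.71 to 4.79 in the grafts.

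The chemokines spanned narrow ranges. Ccl24 was at 3.79 in Control, at 3.13 in Diabetic and at 3.30 to 4.63 across the grafts, highest in the PSI-F graft of day 3. Ccl17 was at 3.06 and 2.60 in the biopsies and between 2.49 and 4.03 in the grafts, highest in the PSI-F graft of day 7. Of its 10 values 5 exceeded the array median, and the highest, 4.03, stood against a median of 2.94 on its array.

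Late grafts (days 7 and 10) were compared with early ones (days 1 and 3), 4 arrays against 4, with the kind of graft as a term. In this comparison 0.42% of all probe sets passed an adjusted p of 0.05, 0.377% lower and 0.0422% higher in late grafts. Of the 11, 4 passed. Chil3 fell from 8.01 ± 1.57 to 2.49 ± 0.86 (SD, n = 4 each), a difference of -5.52 with a standard error of 0.64, or 46.0-fold (limma adjusted p = 0.0245). Arg1 fell from 9.20 ± 0.87 to 6.05 ± 0.68, by 8.89-fold (limma adjusted p = 0.0245), and the shared probe set fell by 33.1-fold (limma adjusted p = 0.0250). For both probe sets that carry the symbol Chil3, late levels lay under the array median, on 2 of 4 arrays for Chil3 and on all 4 for the shared one. With those levels raised to the median, early grafts were at least 31.3-fold above late ones for Chil3 and at least 22.5-fold for the shared probe set. Retnla rose from 5.88 ± 0.23 to 7.74 ± 0.53, by 3.63-fold (limma adjusted p = 0.0366). These were also the only 4 of the 11 whose early and late arrays did not overlap, which held for 9.83% of all probe sets. The other 7 had differences between -0.63 and 0.45 and limma adjusted p-values from 0.371 up.

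These 4 calls depended on single arrays. With each of the 8 arrays left out in turn, the difference kept its sign and lay between -6.23 and -5.06 for Chil3, between -5.80 and -4.63 for the shared probe set, between -3.54 and -2.80 for Arg1 and between 1.69 and 2.11 for Retnla. Without PSI of day 3 the fold was 74.8 for Chil3 and 55.6 for the shared probe set, over 1.5 times the values with all arrays. The limma adjusted p stayed under 0.05 in only 2 of 8 cases for Chil3 (without PSI of day 3 or of day 7), 2 for the shared probe set (the same arrays), 2 for Arg1 (without PSI of day 3 or PSI-F of day 7) and 1 for Retnla (without PSI of day 7). The highest values were 0.109, 0.113, 0.116 and 0.133 in that order, each without PSI of day 1.

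A test for any difference among the 4 days, in which PSI and PSI-F of a day stand in for replicates, called 4.69% of all probe sets and 6 of the 11. Retnla (limma adjusted p = 0.00410) and Arg1 (0.00531) passed in this limma fit and again with each of the 8 arrays left out in turn. Chil3 passed (limma adjusted p = 0.00663) with a range of 6.92 between its day means, of which the lowest (1.80, day 10) is below the array medians, and kept its call in 6 of 8 cases. Mrc1 passed with the mean of day 3 at 8.72 and those of the other days between 7.19 and 7.55 (limma adjusted p = 0.0312), in 1 of 8 cases when an array was left out. Clec10a passed with 5.77 on day 1 and 6.67 to 7.32 later (limma adjusted p = 0.0383), and the shared probe set passed too (0.0129), each in 4 of 8 cases. The adjusted p of Clec10a was 0.0667 after cyclic loess normalization. In Arg1 and Mrc1 the day 3 pair held the highest 2 of the 8 graft values, as in 4.11% of all probe sets.

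**Figure D2:**
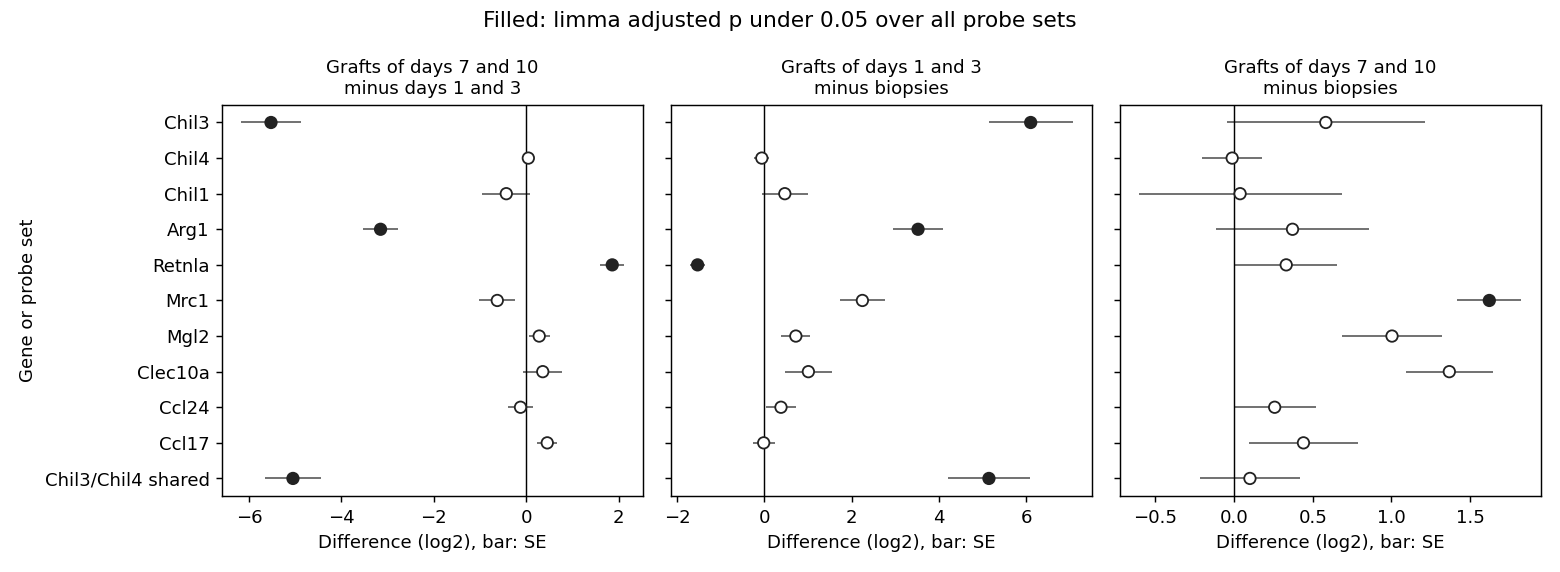
Difference in log2 level with its standard error for each probe set, from limma, in 3 panels with their own scales: late minus early grafts, early grafts minus the 2 biopsies and late grafts minus the 2 biopsies. Filled points passed an adjusted p of 0.05 over all probe sets: Chil3 (-5.52 and 6.11), Arg1 (-3.15 and 3.52), Retnla (1.86 and -1.53) and the shared probe set in the first and second panel, and only Mrc1 (1.62) in the last.

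The grafts were also set against the 2 biopsies, together and by period. Over all 8 grafts 2.16% of probe sets passed and 0 of the 11 did. The nearest was Mrc1, higher by 1.94 with a standard error of 0.44 (limma adjusted p = 0.0501), with all 8 grafts above both biopsies, as in 6.5% of all probe sets. With the 4 grafts of days 1 and 3 alone, where 1.97% of probe sets passed, Chil3 was 6.11 higher (SE 0.96, limma adjusted p = 0.0301), Arg1 3.52 higher (SE 0.56, limma adjusted p = 0.0320), the shared probe set 5.15 higher (limma adjusted p = 0.0477) and Retnla lower, at a difference of -1.53 (SE 0.17, limma adjusted p = 0.0102). Mrc1 was 2.25 higher there and did not pass (limma adjusted p = 0.0850). With the 4 grafts of days 7 and 10 alone, where 0.329% passed, Chil3 differed by 0.58 and Arg1 by 0.37, neither called, and Mrc1 was higher by 1.62 (SE 0.20, limma adjusted p = 0.0451). Both biopsies lay under their array medians in the Chil3 and the shared probe set. With these raised to the median, early grafts were at least 5.17 and 4.57 higher (log2) in these 2 probe sets. These comparisons share both biopsies, so their values are set side by side only. Those with late grafts also cross the change in spike-in controls.

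Set against the Diabetic biopsy alone, 17 of the 88 pairs of a probe set and a graft were at least 4-fold apart, all higher in the graft, where 2.01% of all such pairs were that far apart in either direction. Chil3, the shared probe set and Arg1 gave 12 of them, in each of the 4 early grafts. The others were Mrc1 in both day 3 grafts, Clec10a in the PSI grafts of days 3 and 10, and Chil1 in the PSI-F graft of day 3. Every such pair rests on the same single Diabetic array, and the Clec10a pair of day 10 also crosses the change in spike-in controls. Against the Control biopsy instead, 16 of the 88 pairs were at least 4-fold apart, where 1.33% of all such pairs were, and 14 pairs were 4-fold higher than either biopsy: the same 12 and Mrc1 in both day 3 grafts. Chil1 in PSI-F of day 3 (0.88) and Clec10a in PSI of days 3 and 10 (1.89 and 1.76) were then less than 4-fold apart. Chil3 in PSI-F of day 7 was 2.29 above Control, whose level of 1.12 is below the array median, and Chil1 in PSI-F of day 7 was 4-fold lower than Control (-2.03).

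Whether fibroblasts in the scaffold changed these genes was asked within each day. Of the 4 days, day 3 had the most of the 11 past 2-fold. There 0.109% of all probe sets were higher in PSI-F by 4-fold or more, and among the 11 these were the Chil3 probe set (3.25, 9.55-fold) and the shared one (3.49, 11.3-fold). At least 2-fold higher, as were 0.739% of all probe sets, were also Chil1 (1.64, 3.12-fold), Arg1 (1.57, 2.96-fold) and Ccl24 (1.08, 2.11-fold). Retnla (-0.28), Mgl2 (-0.57) and Clec10a (-0.58) were lower in PSI-F on that day, by less than 2-fold, and Mrc1 was 0.37 higher. Of the 5 probe sets past 2-fold, 2 carry the symbol Chil3, and the probe set of Chil4 alone differed by 0.34. None of the 3 lectin receptors was among the 5. The genes were chosen with earlier results of these data known, so the shares over all probe sets are given as a description only.

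On day 7 Arg1 was 2.12-fold higher in PSI-F, as at least 2-fold were 0.637% of all probe sets, and Chil1 was 3.20-fold lower, as were 0.737%. On day 1, with 0.853% of all probe sets at least 2-fold apart in either direction, and on day 10, with 0.555%, none of the 11 was. The Chil3 levels of day 1 differed by 0.26 and those of day 10 by 0.68. Chil1 was higher in PSI-F on days 1 and 3 and lower on days 7 and 10. The change of its difference between these periods was -1.90 with a standard error of 0.86 and did not pass (limma adjusted p = 1.00). That test called 0.0% of probe sets, with 636 of 45037 at an unadjusted p under 0.05.

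Taken over the 4 days with the day as a block, PSI-F was higher than PSI by 1.17 for Chil3 (SE 0.45), by 0.82 for Arg1 (SE 0.24), by 0.54 for Ccl17 (SE 0.17) and by 0.28 for Chil4 (SE 0.10), and limma gave an adjusted p of 0.751 for each. This limma comparison called 0.0% of all probe sets, and 2749 of 45037 had an unadjusted p under 0.05. Chil3, Chil4 and the shared probe set were higher in PSI-F on all 4 days, 3 of 11, where 7.54% of all probe sets were. For Chil4 the values lie below the array median, as do those of Chil3 on day 10 and of the shared probe set on days 7 and 10. The Chil3 and the shared probe set both carry the symbol Chil3, so the 3 are not separate genes. Without day 3 the Chil3 difference was 0.47, so most of it came from that day.

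**Figure D3:**
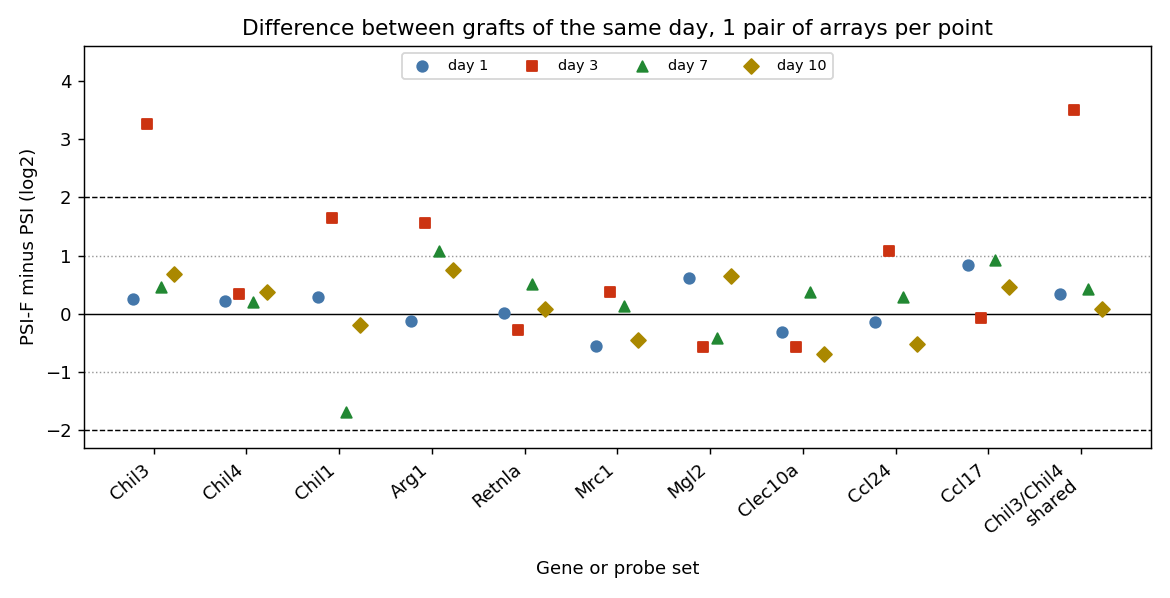
Difference in log2 level between the PSI-F and the PSI graft of the same day for each probe set, 1 pair of arrays per point, with dotted lines at 2-fold and dashed lines at 4-fold. The day 3 points of Chil3 (3.25) and of the shared probe set (3.49) are the only ones past 4-fold, and Chil1 lies at 1.64 on day 3 and at -1.68 on day 7.

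Markers of the cells present differed between these arrays too, and in whole tissue fewer cells of a type cannot be told apart from less RNA per cell. The mean level of 11 macrophage and monocyte markers was 4.67 in Control, 4.85 in Diabetic and 6.35 to 7.92 across the 8 grafts, highest in PSI-F of day 3. Of the 11, 6 were called higher in grafts, where 2.16% of all probe sets were called in either direction. Among the 6 were Fcgr1 (an antibody receptor, 4.09), Lyz2 (lysozyme, 3.44), Cd68 (3.24) and Adgre1 (a surface protein of mature macrophages, 2.79). Mrc1 was higher in the same 8 grafts as the mean of the macrophage markers. Of the single markers, Mertk, Cd14 and C1qb were not above the Diabetic biopsy in every graft. Mertk was at 4.97 in PSI-F of day 1 against 5.22 in Diabetic, Cd14 at 5.03 in PSI-F of day 10 against 5.18, and C1qb at 6.43 in PSI of day 1 against 6.67. Between late and early grafts, however, 1 of the 11 was called, Itgam (-2.83), where 0.42% of all probe sets were, with a median difference of -0.71 over the list and 0.0076 over all probe sets, beside -5.52 for Chil3, -3.15 for Arg1 and 1.86 for Retnla. The test for any difference among the 4 days called 9 of the 11 macrophage markers, beside 4.69% of all probe sets. In the day 3 pair of arrays 3 of the 11 passed 2-fold, all with PSI-F above PSI, beside 0.739% of all probe sets. These 3 were Cd14 (1.95), Lyz2 (1.13) and Itgam (1.04). The list's median there was 0.27, beside -0.0033 over all probe sets. The part of macrophage number in any result for the genes followed here was not tested.

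Among neutrophil markers, 2 of 10 fell between early and late grafts, S100a8 (-2.57) and Mmp8 (a neutrophil collagenase, -2.38), where 0.377% of all probe sets were called lower. S100a9 differed by -3.16 and did not pass (limma adjusted p = 0.0775), and Ltf, Ngp, Camp, Cxcr2 and Mmp9 differed by -0.34 to 0.20. Csf3r and Stfa2l1 were not called either. Csf3r lay between 5.68 and 7.02 in early grafts and between 4.73 and 5.80 in late ones. Stfa2l1 lay between 4.37 and 8.49 in early grafts and between 4.64 and 5.92 in late ones. The median difference of the list was -0.76, beside 0.0076 over all probe sets. The mean level of the 10 was 3.83 in Control, 3.60 in Diabetic, 5.27 and 5.33 on day 1 in PSI and PSI-F, 4.16 and 5.47 on day 3, and between 3.70 and 4.17 on days 7 and 10. That mean was lower on day 3 than on day 1 in PSI and not in PSI-F, as was Chil3. Most single markers did not share this in PSI-F: only Stfa2l1 (6.08 on day 1, 8.49 on day 3), Csf3r and Mmp9 were higher on day 3. In PSI-F, S100a8, S100a9, Cxcr2, Mmp8, Ltf and Camp were lower on day 3 than on day 1, and Ngp was the same. On day 3, 5 of the 10 were higher in PSI-F by 2-fold or more, as were 0.739% of all probe sets, with a median of 1.03 over the list against -0.0033 over all probe sets, and these were Stfa2l1 (4.12), S100a9 (2.27), Mmp9 (2.26), Csf3r (1.34) and Mmp8 (1.29), named after their values were seen. The granule genes Ltf, Ngp and Camp lay between 1.88 and 2.49 in both grafts of that day, below the array median. The part of neutrophils in the Chil3 difference was not tested. All 5 eosinophil markers, by contrast, stayed below the array median on all 10 arrays.

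Skin structures also differed on day 3. Of 7 hair follicle genes, all 7 were lower in PSI-F by 2-fold or more (median -6.21), where 1.13% of all probe sets were, and of 4 keratinocyte genes of wounded epidermis 4 were higher, with a median of 3.54, where 0.739% of all probe sets were. Among mast cell markers the median was 0.98, and 2 of 6 were past 2-fold, both higher, beside the same 0.739%. These lists differed on other days too. On day 1, 5 of the 7 hair follicle genes were lower in PSI-F by 2-fold or more, and 2 of the 4 wound genes were higher. There 0.853% of all probe sets were that far apart in either direction. Chil1 (0.30), Arg1 (-0.12) and Ccl24 (-0.14) were less than 2-fold apart on day 1. On day 7, 6 of the 7 hair follicle genes were higher in PSI-F by 2-fold or more, where 0.637% of all probe sets were, and Chil1 was lower there. Whether such differences in tissue had a part in the values of Chil1, Arg1 and Ccl24 was not tested.

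**Figure D4:**
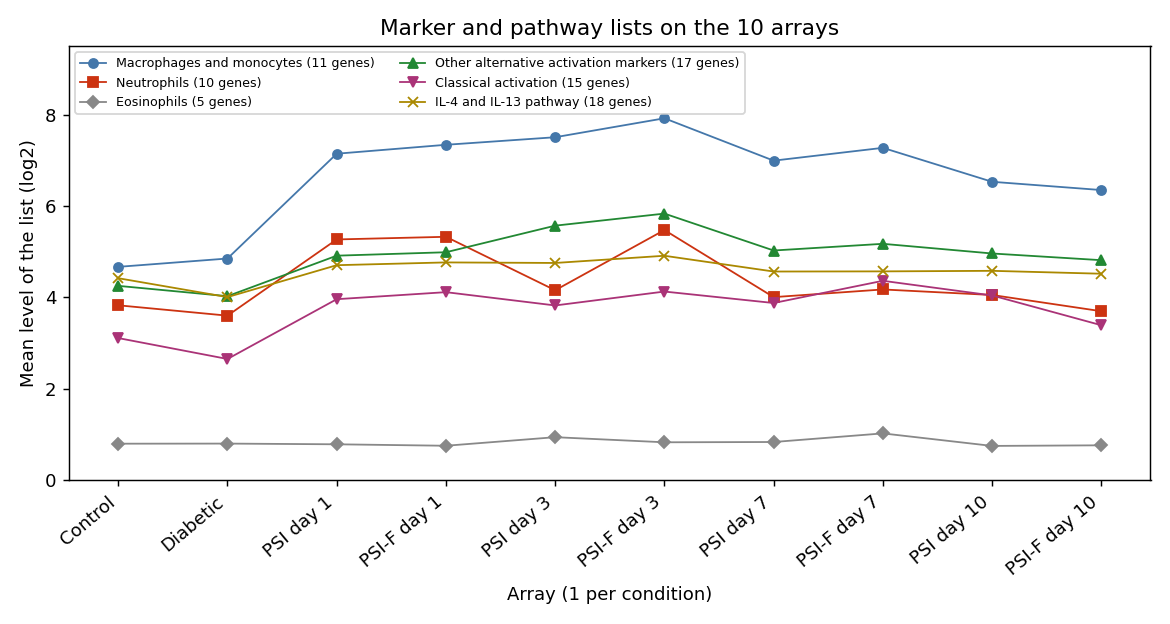
Mean log2 level of 6 lists of marker and pathway genes (number of genes in the legend) on each of the 10 arrays, with lines joining the arrays of a list only to guide the eye. The mean of the macrophage markers is higher in all 8 grafts (6.35 to 7.92) than in the biopsies. The mean of the neutrophil markers is highest on day 1 and in the PSI-F graft of day 3 (5.47), and that of the eosinophil markers stays between 0.75 and 1.03.

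Of the pathway upstream, 18 of 20 listed interleukin-4 and interleukin-13 genes were matched. The cytokines themselves lay below the array medians, Il4 between 0.39 and 1.23 and Il13 between 1.02 and 1.59. Stat6 was present on every array, between 6.01 in Diabetic and 7.23. Among the days 3 of the 18 were called, where 4.69% of all probe sets were: Il33, an alarm cytokine of damaged tissue, with a range of 2.55 between day means, the decoy receptor Il13ra2 (1.39) and the transcription factor Klf4 (0.92). None was called between late and early grafts, between grafts and biopsies or between PSI-F and PSI over the days. Of all probe sets 0.42%, 2.16% and 0.0% were called there, so the lack of calls among 18 genes says little about the list. On day 3 only Il4ra was past 2-fold, higher in PSI-F as were 0.739% of all probe sets (1.11), with 7.32 against 6.21 in PSI, and the list's median was 0.14, beside -0.0033 over all probe sets.

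Of 17 other alternative activation markers, 9 differed among the days, beside 4.69% of all probe sets, including the haemoglobin receptor Cd163 (2.66), the hyaluronan receptor Lyve1 (2.15), the clotting factor chain F13a1 (2.0) and the crosslinking enzyme Tgm2 (1.95), each as a range between day means. Lyve1 was the 1 gene called lower in late grafts (-1.64), beside 0.377% of all probe sets, and the scavenger receptor Stab1 the 1 called higher in grafts than in biopsies (2.06), beside 2.16% called in either direction. On day 3, 2 of 17 were past 2-fold, both higher in PSI-F beside 0.739% of all probe sets, Mmp12 (1.32) and Stab1 (1.11), with a median of 0.17. Among 15 classical activation genes, 3 were called higher in grafts, Irf5 (1.30), Irf1 (1.29) and Cd86 (1.18), beside 2.16% of all probe sets in either direction, and 0 among the days. Between PSI-F and PSI, 3, 4, 3 and 4 of the 15 were at least 2-fold apart on days 1, 3, 7 and 10, where 0.853%, 1.87%, 1.37% and 0.555% of all probe sets were. On day 3 Il6 (2.71), Il1b (2.30) and Ptgs2 (2.05) were higher in PSI-F and Cxcl9 (-2.25) was lower. These differences did not keep their sign over the days: on day 10 Il6 was at -1.80, Il1b at -0.76 and Ptgs2 at -2.33, and Cxcl9 was at 1.96 on day 7 and -2.08 on day 10. Nos2, which competes with Arg1 for arginine, stayed between 1.27 and 1.87, below the array median on all arrays.

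Among relatives by family, 0 of 5 chitinase genes, 0 of 2 resistin genes and 0 of 10 genes of arginine metabolism were called in any of the 5 limma comparisons. These comparisons called between 0.0% and 4.69% of all probe sets, so the lack of calls among so few genes says little about them. Chit1, a true chitinase of macrophages, lay between 6.18 and 7.26, and Arg2, the mitochondrial arginase, between 3.48 and 5.08. Of 12 further lectin receptors, 3 were called higher in grafts, Clec7a (the beta-glucan receptor dectin-1, 3.27), Clec4n (3.12) and Clec4a2 (2.78), beside 2.16% of all probe sets in either direction, and 3 differed among the days, Clec4d, Clec4a2 and Mrc2, beside 4.69%. On day 3 Clec4e (2.59), Clec4n (1.66) and Clec4d (1.51) were past 2-fold, all higher in PSI-F, 3 of 12, beside 0.739% of all probe sets. Of 5 receptors and related ligands of the chemokines, 1 was called higher in grafts, beside 2.16% of all probe sets in either direction. It was Ccl11 (1.16), an eosinophil attractant like Ccl24. Ccr4, the receptor for Ccl17, lay below the array median at 1.64 to 2.18.

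The genes whose levels ran most like those of the members over the 10 arrays were searched among 2572 genes with an SD of at least 0.5. For Chil3 they were Ifitm1 (Pearson r = 0.99), the muscle regulator Myog (0.98) and Mmp8 (0.98). For Arg1 they were Gfra1 (0.97), Il4ra (0.95) and Pgap6 (0.94). For Mrc1 they were Svep1 (0.97), the monocyte receptor Ccr2 (0.96) and Lrp1 (0.96), and for Clec10a the chemokine Ccl8 (0.93), Pltp (0.91) and Cd34 (0.90). Retnla ran most like Ptgds (0.90), Crip3 (0.87) and Tgm3 (0.86). For Chil1 they were Clca3a1 (0.86), Wfdc5 (0.85) and Clca2 (0.85), and for Ccl24 Ptgs2 (0.88), Slc7a11 (0.88) and Krt6b (0.87). For Mgl2 they were Thrsp (0.88), Ap3m2 (0.84) and Anpep (0.84), and for Ccl17 Clec1b (0.84), Lrrc19 (0.82) and Foxs1 (0.80). For Chil4, whose values all lay below the array medians, they were Spsb1 (0.78), Fam107a (0.73) and Tnnt2 (0.71). The correlations share the same 10 arrays, were picked as the highest of many, and are a description only.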

How the data were processed

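Affymetrix whole-genome mouse arrays were used, 10 in all, 1 per condition. The deposited values are the authors' log2 expression levels per probe set; the submitters' processing notes name R 2.15.0, affy 1.36.0 and RMA, which corrects background, quantile-normalizes and summarizes probes, and so compresses differences near background. No depth applies to arrays, and their number limits the precision. The members and lists were chosen with earlier results of these data known.

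Of 45101 probe sets, 64 controls were left out. Symbols came from the platform annotation, 34945 probe sets carrying 1. A gene with several probe sets was represented by the brightest on average. Tests used limma 3.58.1 (lmFit, eBayes) in R 4.3.3 with Benjamini-Hochberg adjustment; fold thresholds were 4, as in the paper, and 2. Named genes were the members, at most 4 genes per list (largest called differences, otherwise the first listed) and the 3 most similar genes per member; genes given for counts of 5 or fewer, and Il4, Il13, Stat6, Nos2, Arg2, Chit1 and Ccr4, were picked by role or after their values were seen. On simulated data with 100 changed probe sets per size, late minus early found 81 of those shifted by 1 (log2) and 98 of those shifted by 2, and called 6 wrongly; in the same order the numbers were for PSI-F minus PSI 70, 92 and 5, for grafts minus biopsies 84, 96 and 12, for the days 4, 59 and 0, and for the change between periods 7, 64 and 4. The simulated arrays differed between days only by the planted changes, and their spread came from a fit with day and kind of graft as terms. In the real data, differences between days add to the spread of the tests that do not have the day as a term. For late minus early, grafts minus biopsies and the change between periods, the simulated recoveries may therefore be too high. Alternatives were 2-fold thresholds, cyclic loess (3 iterations), an intensity trend, leaving out dim probe sets, other model terms, the Control baseline, subsets of days and each array left out. Differences within days 1 and 3 and within days 7 and 10, and levels raised to the array median, were added after the data were seen. Python 3.11.15 with pandas 2.3.3, numpy 2.4.6, Biopython 1.88 and matplotlib 3.10.9 made tables and figures.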

Additional observations from a re-analysis of the deposited data

How the results depend on the processing

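Each condition has 1 array and many values lie near background, so single differences are uncertain, and the cause of the changes below was not tested. Within days, 2 pairs of a member probe set and a day were 4-fold apart between PSI-F and PSI, and 7 at 2-fold. Against Diabetic, 17 pairs were 4-fold apart and 45 at 2-fold, and 16 at 4-fold against Control. For grafts minus biopsies, 0 of 11 members were called, 1 (Mrc1) with cyclic loess, with an intensity trend, without dim probe sets (10 members left) or with late grafts only, and 4 with early grafts only; the exclusion of 1 array gave 0 to 1, where the call was Mrc1 without PSI-F of day 3 or of day 10 and Mgl2 without Control. With 1 array left out, late minus early called 0 to 3 members, against 4 with all arrays, 0 without PSI or PSI-F of day 1, PSI-F of day 3 or either graft of day 10. The days test then called 2 to 7 against 6, with 2 without either array of day 1. PSI-F minus PSI and its change between periods called 0 to 0.

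Over all probe sets, 189 were called late minus early and 407 without the term for the kind of graft. With 1 array left out these were 1 to 260. Grafts minus biopsies called 975, 148 with late grafts only, 15 without Diabetic and 4371 without Control.

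Signs turned only for uncalled values. In PSI-F minus PSI, leaving out 1 array drops its day from the difference: Chil1 then ranged from -0.52 (without day 3) to 0.58 and was -0.075 without day 1, Retnla from -0.060 (without day 7) to 0.20, Mrc1 from -0.29 to 0.021 (without day 1), Mgl2 from -0.12 (without day 1 or day 10) to 0.28, and Ccl24 from -0.12 (without day 3) to 0.41. Late minus early, with 1 array left out, Chil4 ranged from -0.028 to 0.12, Chil1 from -0.71 to 0.14 and Ccl24 from -0.29 to 0.15. In grafts minus biopsies the ranges were -0.21 to 0.14 for Chil4, -0.39 to 0.90 for Chil1, -0.0087 to 0.65 for Ccl24 and -0.013 to 0.44 for Ccl17. There Retnla was 0.33 with late grafts only and Ccl17 -0.012 with early grafts only. PSI and PSI-F were paired by day, and without the day as a block PSI-F minus PSI again called 0 members and 0 probe sets, with 1262 at an unadjusted p under 0.05. The labels carry no replicate numbers by which arrays could be paired otherwise.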
